A study of Homo sapiens with 12 samples.

Results

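The NF-kB pathway was followed through 10 of its genes, namely NFKB1, NFKB2, RELA, RELB, NFKBIA, NFKBIB, NFKBIE, TNFAIP3, TNIP1 and BIRC3, in 2 human gastric cancer cell lines given cantharidin sodium. They were chosen by name, as 4 genes of NF-kB subunits and 6 genes of proteins that hold the pathway back or feed back on it. Each name matched 1 Ensembl identifier, so that 10 of the 32269 identifiers of the count table were used, and all 10 were among the 20280 genes that passed the filter on low counts.

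The study measured mRNA by sequencing in 12 libraries, with 3 biological replicates per group according to its design text. The groups were MKN1 cells treated with cantharidin sodium, untreated MKN1 cells, AGS cells treated with cantharidin sodium, and untreated AGS cells. Both lines are labelled as wild type, MKN1 as an adenosquamous carcinoma of the stomach and AGS as an epithelial cell of gastric adenocarcinoma. Cantharidin, the toxin whose sodium salt was used, comes from blister beetles and is known as an inhibitor of the phosphatases PP2A and PP1. How much was given, and for how long, is not stated in the sources used here.

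NF-kB transcription factors are dimers of the Rel family proteins, which IkB proteins hold in the cytoplasm. Signals from cytokine or innate immune receptors activate the IkB kinase, which marks IkB for destruction and lets the dimers enter the nucleus. Several of the genes they then switch on encode inhibitors of the same pathway, and this negative feedback is a classic feature of NF-kB signalling in epithelial cells.

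Library totals lay between 28604966 and 51604215 counts, and levels below are CPM, the count of a gene scaled to the library total, with TMM factors for library size. All 6 epithelial marker genes averaged over 1 CPM in every group, and their summed level lay between 4110 and 6630 CPM in all libraries. All 7 squamous epithelial markers averaged over 1 CPM in MKN1, where treated libraries summed to 4730 to 6280 CPM and untreated ones to 4440 to 9180 CPM. In AGS only KRT17 and SFN did, and treated AGS libraries summed to 104 to 146 CPM and untreated ones to 178 to 217 CPM. Of the immune markers, 6 of 8 had an identifier, and LYZ averaged 1290 CPM in treated and 1260 CPM in untreated AGS cells. LYZ stood alone there, as CD68 averaged 2.06 CPM in treated and 1.14 CPM in untreated AGS cells. PTPRC, MS4A1, CD14 and ITGAM averaged at most 0.275 CPM in either AGS group. In MKN1 the immune sum was 21.9 to 37.2 CPM in treated and 40.8 to 56.9 CPM in untreated libraries, mostly CD68. Fibroblast markers summed to 58.4 to 148 CPM and endothelial markers to at most 4.6 CPM. The part of these markers in the results was not tested. In bulk RNA, fewer cells of a type and less RNA per cell cannot be told apart. MKN1 untreated replicate 3 stood apart from its group. On the first principal component within MKN1 it lay at 6.7, against 16.3, 35.6 and 48.2 for the treated libraries and −52.5 and −54.4 for the other untreated ones. The MKN1 results that change without it are given both ways.

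The 10 genes are shown first by the DNA before their start sites, because several of them are textbook targets of the factor that they encode or restrain. RefSeq start sites in GRCh38.p14 were at hand for 8 of the 10 genes, and the 250 bases upstream were searched on both strands for the 10-base kappa-B consensus, the motif bound by NF-kB dimers. Of these 8 genes, 7 held at least 1 match, RELA being the exception, against 11.8% of 27167 genes with such windows. Counted by window, 8 of 14 windows held a match, against 9.9% of 34943. The sequences below are 5′ to 3′ on the strand of the gene, with the matched bases in capitals. Matches on opposite strands can overlap, and 2 of the 12 sites span 11 bases for that reason.
NFKB1, chr4:102501300-102501329, plus strand, match 49 to 40 bases before the start: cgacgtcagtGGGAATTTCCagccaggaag
NFKB2, chr10:102394462-102394490, plus strand, match 107 to 97 bases before the start: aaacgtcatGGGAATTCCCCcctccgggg
NFKBIA, chr14:35404811-35404840, minus strand, match 81 to 72 bases before the start: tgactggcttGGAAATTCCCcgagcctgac
NFKBIB, chr19:38899932-38899960, plus strand, match 28 to 18 bases before the start: ggcgtggtgGGGAATTTCCCgcagggcgg
TNFAIP3, chr6:137867182-137867211, plus strand, match 67 to 58 bases before the start: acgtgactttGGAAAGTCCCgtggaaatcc
TNFAIP3, chr6:137867194-137867223, plus strand, match 55 to 46 bases before the start: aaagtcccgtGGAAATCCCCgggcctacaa
TNIP1, chr5:151081057-151081086, minus strand, match 42 to 33 bases before the start: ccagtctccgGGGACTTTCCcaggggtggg
BIRC3, chr11:102317275-102317304, plus strand, match 199 to 190 bases before the start: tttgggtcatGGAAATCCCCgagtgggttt
BIRC3, chr11:102317339-102317368, plus strand, match 135 to 126 bases before the start: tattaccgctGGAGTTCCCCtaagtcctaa
NFKB2 held 3 more sites and is shown by its most distal one in its second window. The 2 TNFAIP3 sites begin 12 bases apart. The matched stretch in BIRC3 that is farthest from the start, GGAAATCCCC, is also the second TNFAIP3 match. Start sites here are those of RefSeq, and distances refer to them. The printed matches of NFKB2, TNFAIP3 and TNIP1 overlap GENCODE exons of the same gene. These matches and that of NFKBIB lie inside the gene spans given below. The NFKB1 match overlaps an exon of AF213884.3, and its printed stretch ends at the first base of the NFKB1 span. A match describes these letters and does not show binding.

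**Figure D1:**
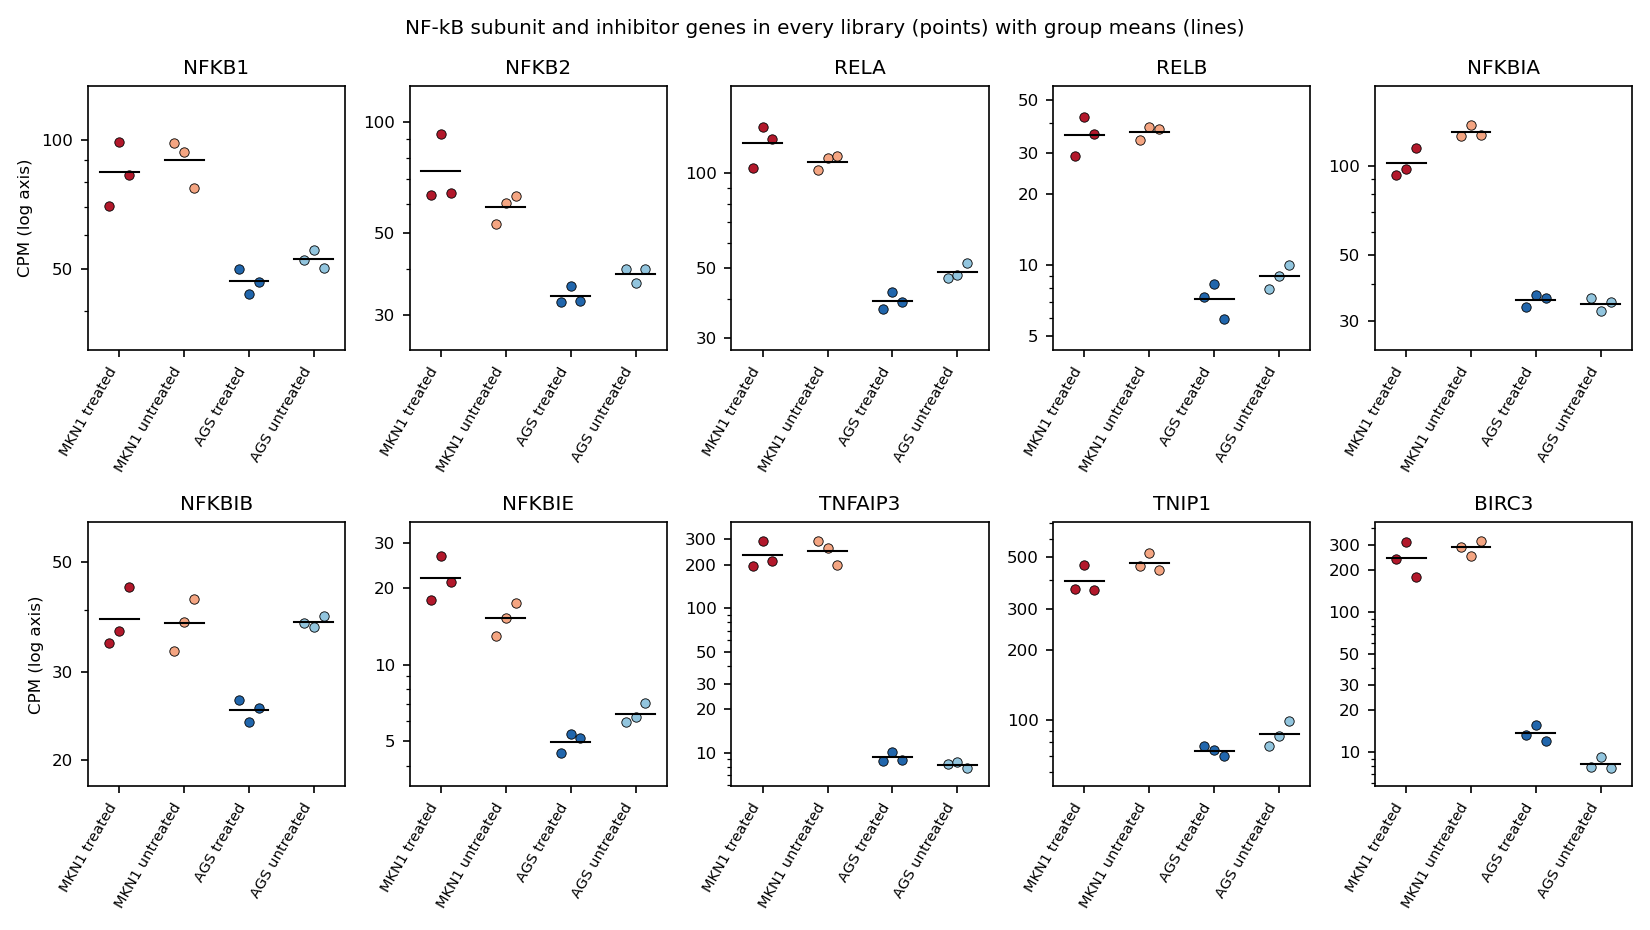
Level of each of the 10 genes in CPM on a log axis, with 1 point per library and a line at the group mean, for treated MKN1, untreated MKN1, treated AGS and untreated AGS cells. TNFAIP3 and BIRC3 lie at 178.0 CPM or more in every MKN1 library and at 15.8 CPM or less in every AGS library, whereas NFKBIB has similar levels in untreated cells of both lines.

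Untreated MKN1 cells carried more mRNA than untreated AGS cells for 9 of the 10 genes, and the gap was widest for the feedback genes BIRC3 and TNFAIP3. By edgeR's quasi-likelihood test with Benjamini-Hochberg adjustment over all tested genes, 9 genes passed 0.05, all with higher levels in MKN1, and 7 of these had a log2 fold change of at least 1 in that direction. Calls were common in this comparison: 66.3% of tested genes passed, 34.9% higher and 31.4% lower in MKN1, and 25% passed with a log2 fold change of at least 1 towards MKN1. The median log2 fold change of the 10 genes was 1.59, against 0.04 over all genes tested. Untreated libraries of the lines did not overlap for 9 of the 10 genes and for 71.4% of all tested genes.

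BIRC3 (ENSG00000023445, chromosome 11, 102317450 to 102339403, plus strand, all gene positions in GRCh38 from GENCODE release 29) encodes cIAP2, a ubiquitin ligase of the TNF receptor complex. It had 292.7, 253.1 and 322.6 CPM in untreated MKN1 cells, against 7.88, 9.26 and 7.70 CPM in untreated AGS cells. Every MKN1 library was far above every AGS library. The log2 fold change was 5.13 (SE 0.22, adjusted p = 4.02e-10), which is 35.0-fold.

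TNFAIP3 (ENSG00000118503, chromosome 6, 137867188 to 137883312, plus strand) encodes A20, a ubiquitin-editing enzyme that ends NF-kB signals. It had 289.0, 261.5 and 197.9 CPM in untreated MKN1 cells, against 8.29, 8.60 and 7.88 CPM in untreated AGS cells. The groups were again far apart, with MKN1 untreated replicate 3 the lowest of its group. The log2 fold change was 4.92 (SE 0.19, adjusted p = 1.98e-10), and 1.9% of its exon bases overlap WAKMAR2 on the other strand. TNIP1 (ENSG00000145901, chromosome 5, 151029945 to 151093577, minus strand), whose product ABIN1 is a partner of A20, had 456.7, 520.8 and 438.8 CPM in untreated MKN1 cells, against 77.4, 85.5 and 98.7 CPM in untreated AGS cells. It was 5.42-fold higher in MKN1 (log2 fold change 2.44, SE 0.13, adjusted p = 4.33e-09).

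The IkB genes differed among themselves. NFKBIA (ENSG00000100906, chromosome 14, 35401511 to 35404749, minus strand), the gene of the main inducible inhibitor IkB alpha, had 125.9, 137.3 and 127.2 CPM in untreated MKN1 cells, against 35.8, 32.4 and 34.9 CPM in untreated AGS cells. The log2 fold change was 1.92 (SE 0.11, adjusted p = 4.89e-09), with no overlap between the lines. NFKBIE (ENSG00000146232, chromosome 6, 44258166 to 44265788, minus strand), the gene of IkB epsilon, was 2.38-fold higher (log2 fold change 1.25, SE 0.18, adjusted p = 3.99e-05). NFKBIB (ENSG00000104825, chromosome 19, 38899700 to 38908893, plus strand), the gene of IkB beta, had 33.1, 37.8 and 42.2 CPM in untreated MKN1 cells, against 37.7, 36.9 and 38.9 CPM in untreated AGS cells. These groups overlapped, and the log2 fold change of −0.01 (SE 0.12, adjusted p = 0.972) had a 95% interval of −0.27 to 0.26.

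All 4 subunit genes among the 10 were higher in untreated MKN1 cells. REL, a Rel family gene outside the 10, was not (log2 fold change −0.32, adjusted p = 0.234 by edgeR). RELB (ENSG00000104856, chromosome 19, 45001430 to 45038198, plus strand), the gene of the transactivating partner of p52 in the non-canonical pathway, had 34.0, 38.7 and 37.8 CPM in untreated MKN1 cells, against 7.90, 9.00 and 10.01 CPM in untreated AGS cells. Its log2 fold change of 2.04 (SE 0.17, adjusted p = 2.62e-07) was above that of RELA, the p65 gene (ENSG00000173039, chromosome 11, 65653596 to 65663094, minus strand), at 1.16 (SE 0.12, adjusted p = 1.51e-06). NFKB1, the gene of p105 and p50 (ENSG00000109320, chromosome 4, 102501329 to 102617302, plus strand), was higher by 0.77 (SE 0.13, adjusted p = 0.000198). NFKB2, the gene of p100 and p52 (ENSG00000077150, chromosome 10, 102394110 to 102402529, plus strand), was higher by 0.60 (SE 0.14, adjusted p = 0.00219). Differences between genes in these fold changes were not tested.

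Levels of different genes were compared as CPM per kilobase of exon. Exons were merged over all transcripts of a gene, which exceeds the longest coding transcript unequally. The 2 lengths are 5793 and 2935 bases for TNIP1, 5464 and 3183 for RELA, and 2581 and 2581 for NFKBIE. Orders of genes, shares and ratios of sums thus depend on the length used, and transcript length was not tried. In untreated MKN1 cells TNIP1 was first at 81.5 ± 7.45 (SD, n = 3, as for all such values), followed by NFKBIA at 54.8 ± 2.62, TNFAIP3 at 49.4 ± 9.25 and BIRC3 at 38.5 ± 4.64, whose libraries overlapped from one to the next. RELA stood apart at 19.9 ± 1.08. NFKBIB at 16.2, NFKB1 at 14.4, NFKB2 at 13.1 and RELB at 12.1 each overlapped the next, and NFKBIE was last at 5.89 ± 0.884. In untreated AGS cells the order put NFKBIB first at 16.3 ± 0.417, overlapping TNIP1 at 15.1 and NFKBIA at 14.5. RELA, NFKB2 and NFKB1 followed with overlapping levels of 8.91, 8.65 and 8.44, then RELB at 2.96 and NFKBIE at 2.48. TNFAIP3 at 1.64 ± 0.0713 and BIRC3 at 1.10 ± 0.113 were at the bottom in AGS, whereas in MKN1 they lay above all 4 subunit genes.

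The subunit sum covers NFKB1, NFKB2, RELA and RELB and leaves out REL, so its shares are not those of all Rel family mRNA. REL averaged 15.8 CPM in untreated MKN1 cells and 19.7 CPM in untreated AGS cells, where RELB averaged 8.97 CPM. Among the subunit transcripts, summed per kilobase without REL, RELB made up 20.4% ± 0.757 in untreated MKN1 cells and 10.2% ± 0.98 in untreated AGS cells. NFKB2 made up 21.97% ± 1.46 in untreated MKN1 cells and 29.9% ± 1.4 in untreated AGS cells, and neither gene's shares overlapped between the lines. RELA took 33.5% in MKN1 and 30.8% in AGS. The IkB sum was 1.29 ± 0.0306 times the subunit sum in untreated MKN1 cells and 1.15 ± 0.0351 times in untreated AGS cells. The sum of TNFAIP3, TNIP1 and BIRC3 was 2.85 ± 0.2 times the subunit sum in MKN1 and 0.613 ± 0.0481 times in AGS.

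**Figure D2:**
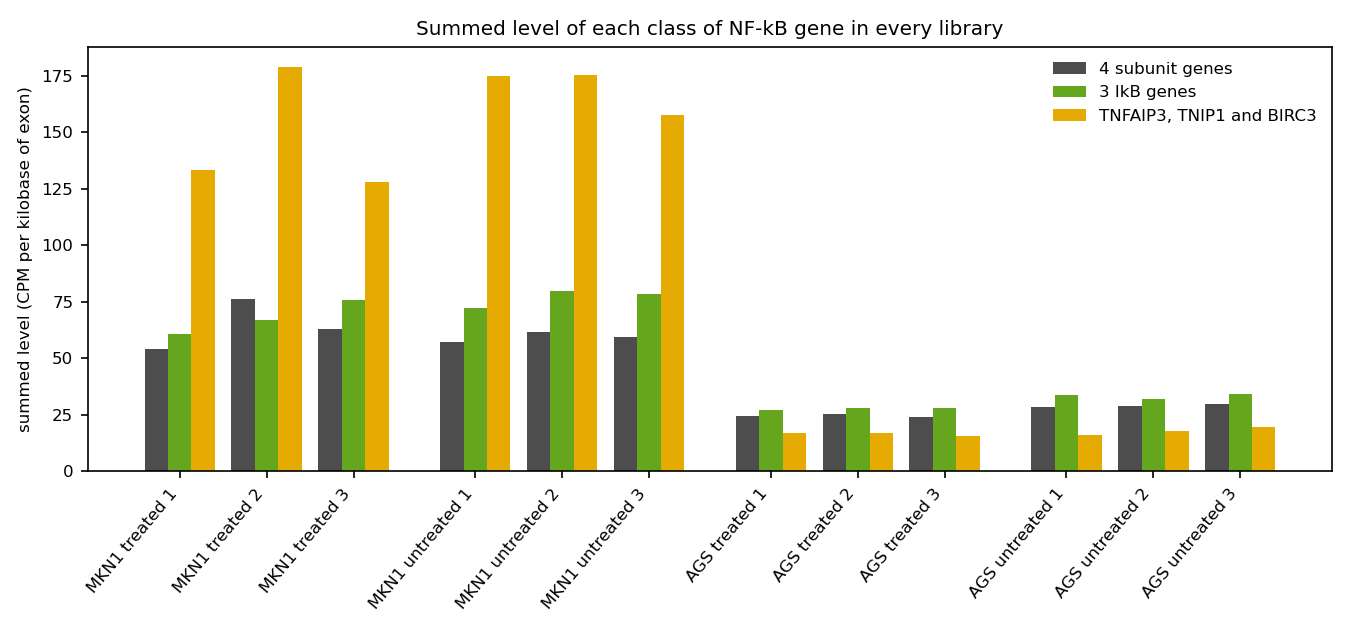
Summed CPM per kilobase of exon in each library for the 4 subunit genes (without REL), the 3 IkB genes, and TNFAIP3, TNIP1 and BIRC3 together, as bars from 0. In untreated MKN1 cells the feedback sum averages 169.4 against a subunit sum of 59.6, while in untreated AGS cells it averages 17.8 against 28.96.

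Within AGS, treatment went with lower NFKBIB and higher BIRC3 mRNA, and the other 8 genes did not pass the test. These 2 calls among 10 genes stand beside 20.8% of all tested genes called in AGS, 9.21% higher and 11.6% lower, so the share of calls was that of the background. The median log2 fold change of the 10 genes was −0.22, with 3 higher and 7 lower, against −0.01 over all genes tested. No overlap between treated and untreated libraries was seen for 8 of the 10 genes, against 52.4% of all tested genes.

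NFKBIB had 26.4, 23.9 and 25.5 CPM in treated AGS cells, against 37.7, 36.9 and 38.9 CPM in untreated AGS cells. All treated libraries were lower than all untreated ones, with little spread in either group. NFKBIB fell by 0.58 on the log2 scale (SE 0.13, adjusted p = 0.0072), to 0.667 of the untreated level. It was past the threshold in all 22 alternatives. Changes in AGS followed transcript GC content across genes (Spearman correlation −0.27 over 20207 genes, a description), and the NFKBIB transcript has 62.3% GC. Removal of the GC and length trend brought its log2 fold change to −0.31 (adjusted p = 0.0279). Some 1.7% of its exon bases overlap SIRT2 on the other strand, and the library kit does not mark strand.

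BIRC3 had 13.3, 15.8 and 12.0 CPM in treated AGS cells, against 7.88, 9.26 and 7.70 CPM in untreated AGS cells. All treated libraries were higher. BIRC3 rose by 0.73 (SE 0.19, adjusted p = 0.0188), that is 1.66-fold. Leaving out untreated replicate 1 or 3 or treated replicate 2 of AGS ended the call, with adjusted p of 0.0682, 0.0783 and 0.0827. So did limma voom (0.0508) and removal of the GC and length trend (log2 fold change 0.50, adjusted p = 0.0566). Its transcript has 34.8% GC, the lowest of the 10. Treated AGS cells, at 13.7 ± 1.91 CPM, remained far under the lowest MKN1 library at 178.0 CPM.

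RELA had 37.2, 42.2 and 39.2 CPM in treated AGS cells, against 46.6, 47.5 and 51.99 CPM in untreated AGS cells. The groups did not overlap, and the log2 fold change was −0.30 (SE 0.12, adjusted p = 0.0858). It passed in 2 of 22 alternatives, with AGS fitted alone (adjusted p = 0.00543) and without MKN1 treated replicate 1. Over the alternatives its log2 fold change ran from −0.35 to −0.12, with adjusted p up to 0.427. NFKB1, NFKB2, NFKBIE and TNIP1 also had all treated AGS libraries below all untreated ones, with log2 fold changes of −0.17, −0.20, −0.36 and −0.24 (adjusted p = 0.38, 0.331, 0.174 and 0.198). NFKB1 ran from 43.8 to 50.19 CPM in treated and from 50.39 to 55.4 CPM in untreated AGS cells, so that its groups all but touched. NFKBIE, the scarcest of them, had 4.47, 5.32 and 5.12 CPM in treated AGS cells, against 5.97, 6.199 and 7.03 CPM in untreated AGS cells. NFKB2 ran from 32.5 to 35.9 CPM in treated and from 36.7 to 39.9 CPM in untreated AGS cells. With AGS fitted alone NFKB2, NFKBIE and TNIP1 passed as well (adjusted p = 0.0273, 0.0419 and 0.0469), but that fit called 8368 of the 17345 genes it tested. After removal of that trend the values of these 4 genes lay between −0.15 and 0.07, so that the direction of NFKB2 turned (0.07, adjusted p = 0.764).

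TNFAIP3 had 8.70, 10.1 and 8.95 CPM in treated AGS cells, against 8.29, 8.60 and 7.88 CPM in untreated AGS cells. Treated libraries were all slightly higher, and the log2 fold change of 0.17 (SE 0.17, adjusted p = 0.518) did not pass. NFKBIA had 33.4, 36.8 and 35.9 CPM in treated AGS cells, against 35.8, 32.4 and 34.9 CPM in untreated AGS cells. These groups overlapped, and the log2 fold change was 0.04 (SE 0.10, adjusted p = 0.814; 95% interval −0.18 to 0.27). RELB overlapped too (log2 fold change −0.32, SE 0.17, adjusted p = 0.205). Over the alternatives its log2 fold change ran from −0.44 to −0.002.

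Within MKN1, none of the 10 genes passed edgeR's test, while 6.7% of all tested genes did, 2.8% higher and 3.9% lower. At an unadjusted p under 0.05 there were 3, NFKB2, NFKBIA and NFKBIE, against 23.4% of all tested genes. DESeq2 called NFKBIA and NFKBIE and limma voom called NFKBIA. NFKB2, NFKBIA and NFKBIE were also the genes with no overlap of treated and untreated libraries, against 21.4% of tested genes. The median log2 fold change was −0.07, with 4 higher and 6 lower, against 0.01 over all genes tested.

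NFKBIA had 92.9, 97.2 and 115.1 CPM in treated MKN1 cells, against 125.9, 137.3 and 127.2 CPM in untreated MKN1 cells. All treated libraries were lower, and the log2 fold change was −0.35 (SE 0.10, adjusted p = 0.0583). The adjusted p was 0.0149 with DESeq2, 0.0455 with limma voom, 0.0158 after removal of the GC and length trend, 0.0372 without MKN1 untreated replicate 3 and 0.278 with MKN1 fitted alone. It also passed without MKN1 treated replicate 3.

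NFKBIE had 17.9, 26.9 and 21.2 CPM in treated MKN1 cells, against 12.9, 15.3 and 17.5 CPM in untreated MKN1 cells. All treated libraries were higher, although treated replicate 1 and untreated replicate 3 nearly met. The log2 fold change was 0.53 (SE 0.18, adjusted p = 0.0887), and it passed with DESeq2 (0.0394), after removal of the GC and length trend (0.0276) and without MKN1 untreated replicate 3 (0.64, adjusted p = 0.0352). NFKB2 had 63.4, 92.6 and 64.1 CPM in treated MKN1 cells, against 52.9, 60.4 and 62.8 CPM in untreated MKN1 cells. Its treated libraries were all higher, 2 of them only just, and the log2 fold change was 0.32 (SE 0.14, adjusted p = 0.192).

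The feedback genes that stood so high in MKN1 overlapped between treated and untreated MKN1 cells. BIRC3 had 240.0, 316.0 and 178.0 CPM in treated MKN1 cells, against 292.7, 253.1 and 322.6 CPM in untreated MKN1 cells (log2 fold change −0.24, SE 0.18, adjusted p = 0.455). TNFAIP3 had 194.6, 289.7 and 211.6 CPM in treated MKN1 cells, against 289.0, 261.5 and 197.9 CPM in untreated MKN1 cells (−0.11, SE 0.16, adjusted p = 0.744). For both genes the range within a group exceeded the gap between the group means. TNIP1 ran from 361.4 to 460.6 CPM in treated and from 438.8 to 520.8 CPM in untreated MKN1 cells, with a log2 fold change of −0.25 (adjusted p = 0.25).

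The other subunit genes and NFKBIB overlapped as well in MKN1. RELA had 104.0, 140.0 and 128.8 CPM in treated MKN1 cells, against 102.2, 111.4 and 113.2 CPM in untreated MKN1 cells, and its log2 fold change was 0.19 (adjusted p = 0.351). NFKB1 ran from 70.4 to 99.2 CPM in treated and from 77.5 to 98.4 CPM in untreated MKN1 cells (−0.10, adjusted p = 0.714). RELB ran from 28.99 to 42.6 CPM in treated and from 33.98 to 38.7 CPM in untreated MKN1 cells (−0.04, adjusted p = 0.914). Treated replicate 1 was the lowest and treated replicate 2 the highest treated library for all 3 of these subunit genes. NFKBIB had 34.3, 36.4 and 44.4 CPM in treated MKN1 cells, next to the untreated values given above (0.03, adjusted p = 0.93).

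**Figure D3:**
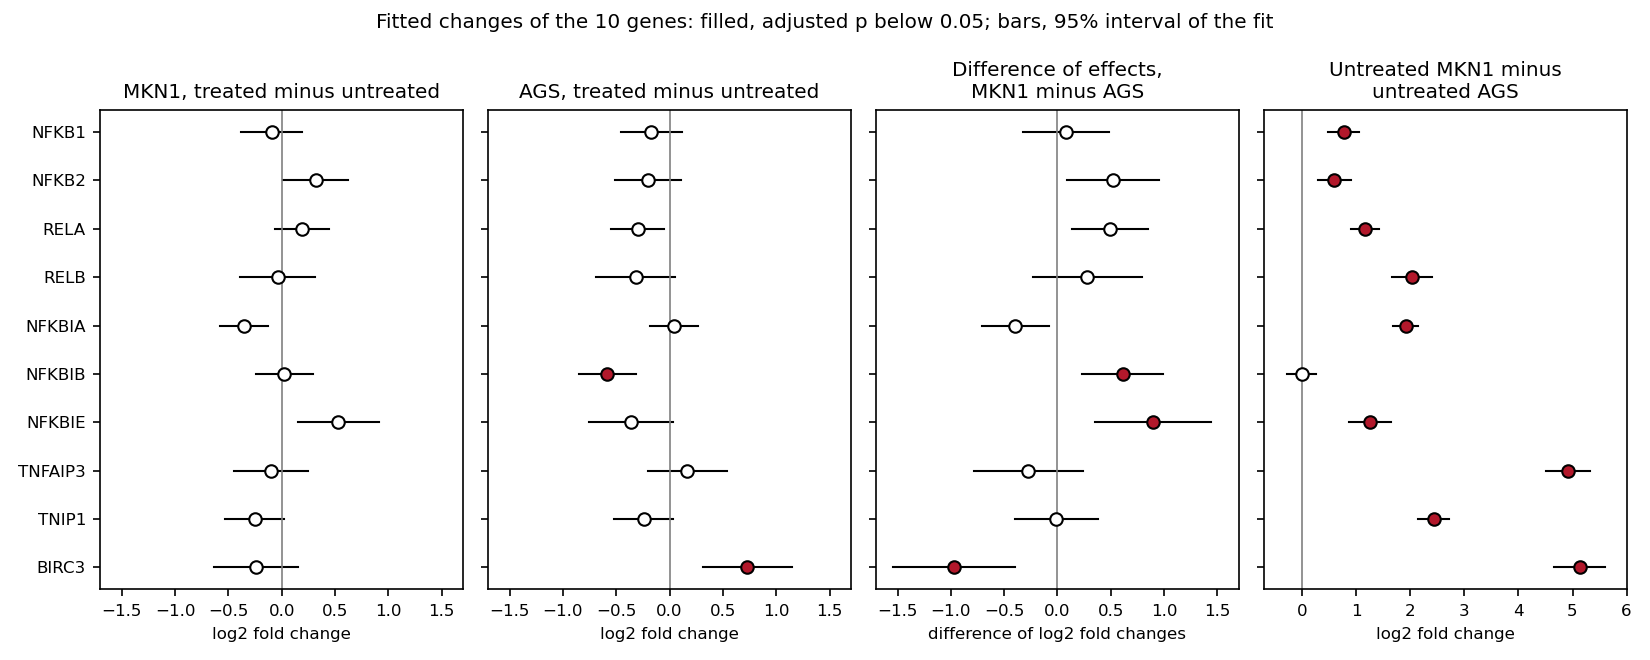
Log2 fold change of each of the 10 genes with its 95% interval, in 4 panels for treated minus untreated MKN1, treated minus untreated AGS, the difference of these effects (MKN1 minus AGS), and untreated MKN1 minus untreated AGS. Filled points passed adjusted p below 0.05 by edgeR: none in MKN1, NFKBIB and BIRC3 in AGS, NFKBIB, NFKBIE and BIRC3 for the difference, and all but NFKBIB between the untreated lines.

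The difference between the treatment effects, MKN1 minus AGS, was tested directly. Of the 10 genes 3 passed, NFKBIB and NFKBIE with positive and BIRC3 with negative differences, against 15.7% of all tested genes, 8.38% positive and 7.3% negative. The median difference of the 10 genes was 0.18, against 0.03 over all genes tested. NFKBIE differed by 0.89 (SE 0.25, adjusted p = 0.0304), being 0.53 in MKN1 and −0.36 in AGS. BIRC3 differed by −0.97 (SE 0.26, adjusted p = 0.0259), with −0.24 in MKN1 and 0.73 in AGS. NFKBIB differed by 0.61 (SE 0.18, adjusted p = 0.0338), with 0.03 in MKN1 and −0.58 in AGS. Leaving out any of untreated replicate 1, untreated replicate 3 and treated replicate 2 of AGS ended all 3 calls. Without MKN1 untreated replicate 3, or without MKN1 treated replicate 1, 4 of the 10 genes passed. Of 21 alternatives BIRC3 passed in 18 and NFKBIB and NFKBIE in 11 each, and leaving out any 1 AGS library ended the calls of NFKBIB and NFKBIE. These 2 calls also ended without MKN1 untreated replicate 1 or 2, NFKBIB without MKN1 treated replicate 3 and NFKBIE without MKN1 treated replicate 2.

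The remaining genes did not pass. RELA differed by 0.49 (SE 0.16, adjusted p = 0.0605), NFKBIA by −0.40 (SE 0.15, adjusted p = 0.085) and NFKB2 by 0.52 (SE 0.20, adjusted p = 0.0939). RELA passed in 5 of 21 alternatives, with adjusted p down to 0.0173, and NFKB2 in 0. NFKBIA passed in 3 of 21, among them DESeq2 (0.0485) and removal of the GC and length trend (0.0108). NFKB1 at 0.08, RELB at 0.28, TNFAIP3 at −0.27 and TNIP1 at −0.01 had adjusted p of 0.819, 0.455, 0.463 and 0.976.

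Sums by role put these values together, without a test. The subunit sum, again without REL, was 64.4 ± 11.2 CPM per kilobase in treated and 59.6 ± 2.11 in untreated MKN1 cells, with overlap. In AGS cells it was 24.6 ± 0.806 in treated and 28.96 ± 0.695 in untreated cells, without overlap. REL itself averaged 27.8 CPM in treated and 19.7 CPM in untreated AGS cells, without overlap (log2 fold change 0.50, adjusted p = 0.137 by edgeR). In MKN1 REL averaged 22.1 CPM in treated and 15.8 CPM in untreated cells, with overlap. Sums were not recomputed after removal of the GC and length trend. The IkB sum was 67.9 ± 7.54 in treated and 76.9 ± 4.1 in untreated MKN1 cells, and 27.7 ± 0.458 in treated and 33.2 ± 1.16 in untreated AGS cells. The IkB sum divided by the subunit sum was 1.07 (0.88 to 1.21) in treated and 1.29 (1.26 to 1.32) in untreated MKN1 cells, which did not overlap. In AGS this ratio was 1.12 in treated and 1.15 in untreated cells, which overlapped. The sum of TNFAIP3, TNIP1 and BIRC3 was 146.8 ± 27.9 in treated and 169.4 ± 10 in untreated MKN1 cells, and 16.4 ± 0.815 in treated and 17.8 ± 1.79 in untreated AGS cells, with overlap in both lines. Divided by the subunit sum it was 2.28 (2.03 to 2.47) in treated and 2.85 (2.65 to 3.05) in untreated MKN1 cells, without overlap, and 0.665 (0.647 to 0.685) in treated and 0.613 (0.564 to 0.66) in untreated AGS cells, with overlap. By level per kilobase BIRC3 stood last in treated AGS cells at 1.82, overlapping TNFAIP3 at 1.83, NFKBIE at 1.93 and RELB at 2.37 from one to the next. NFKBIA led there at 14.9, and NFKBIB at 10.9 lay under TNIP1 at 12.7, with no overlap among these. In treated MKN1 cells TNIP1 was first at 68.3 and clear of TNFAIP3 at 45.9, and each gene from TNFAIP3 down to NFKBIE at 8.52 overlapped the next.

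Across the 12 libraries, after centring each line on its own mean, some pairs of the 10 genes moved alike in log2 CPM. Pearson's r was 0.909 for NFKB2 with NFKBIE and also for RELA with NFKBIE, and 0.818 for NFKB2 with RELA. The lowest was −0.796 for NFKBIB with BIRC3. Among 12014 genes of at least 5 CPM, the closest to NFKB2 were DNTTIP1 (0.915), ULK1 (0.915) and NFKBIE itself (0.909), and the closest to NFKBIA were AGBL5 (0.968), RTEL1 (0.951) and PIEZO1 (0.934). These values are descriptions, since libraries share treatment, depth and scaling.

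The 5 lists of other pathway genes give the surroundings of the 10. Their counts of called genes stand beside the shares over all tested genes, which were 6.7% in MKN1, 20.8% in AGS, 15.7% for the difference and 66.3% between the untreated lines. Without MKN1 untreated replicate 3 the all-gene number in MKN1 was 3160 of 20928. Of the other Rel and IkB family genes (REL, NFKBID, NFKBIZ and BCL3), BCL3 passed in both lines with opposite signs. BCL3, a nuclear IkB protein that works with p50 and p52 dimers, had 43.1, 48.6 and 52.5 CPM in treated MKN1 cells, against 71.3, 80.3 and 69.5 CPM in untreated MKN1 cells. It had 38.1, 31.5 and 34.2 CPM in treated AGS cells, against 27.6, 24.7 and 28.2 CPM in untreated AGS cells. Treated libraries were all lower in MKN1 and all higher in AGS. BCL3 fell by 0.62 in MKN1 (SE 0.12, adjusted p = 0.0108) and rose by 0.37 in AGS (SE 0.12, adjusted p = 0.0409), a difference of −0.98 (SE 0.16, adjusted p = 0.00225). The AGS call held in 14 of 22 alternatives, with adjusted p from 0.000805 to 0.16, and ended without any 1 of the AGS libraries. Removal of the GC and length trend brought the AGS value to 0.69. In MKN1 it held in 20, ending with MKN1 fitted alone (adjusted p = 0.106) and without MKN1 untreated replicate 2 (0.0571). The list's median was 0.18 in MKN1 and 0.31 in AGS, and 3 of the 4 genes, where 34.9% of all tested genes did, passed as higher in untreated MKN1 than in untreated AGS cells, BCL3 by 1.46, NFKBIZ by 1.67 and NFKBID by 0.58.

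Of 20 canonical upstream genes, from receptor adaptors to the IkB kinase, 1 was higher and 0 lower in MKN1 (median −0.01), and 3 were higher and 2 lower in AGS (median 0.04), beside the shares of 6.7% and 20.8% over all genes. Without MKN1 untreated replicate 3 there were 2 higher and 2 lower in MKN1. MYD88, the adaptor of Toll-like and interleukin-1 receptors, had 73.3, 90.5 and 81.6 CPM in treated MKN1 cells, against 59.8, 59.6 and 53.0 CPM in untreated MKN1 cells. It had 58.8, 74.1 and 59.2 CPM in treated AGS cells, against 87.7, 98.0 and 97.3 CPM in untreated AGS cells. MYD88 rose by 0.51 in MKN1 (SE 0.12, adjusted p = 0.0274) and fell by 0.56 in AGS (SE 0.12, adjusted p = 0.00723), and the effects differed by 1.07 (adjusted p = 0.00176). The MKN1 call ended with MKN1 fitted alone (adjusted p = 0.151) and without MKN1 untreated replicate 1 (0.0556), untreated replicate 2 (0.0825) or treated replicate 2 (0.0898). In AGS, IKBKB, a catalytic subunit gene of the IkB kinase, rose by 0.60 (SE 0.13, adjusted p = 0.00756), TRAF5, a signalling adaptor gene, by 1.13 (SE 0.24, adjusted p = 0.00685), and RBCK1, which encodes the HOIL-1 subunit of the linear ubiquitin ligase, by 0.65 (SE 0.16, adjusted p = 0.0119). For the difference 2 of the 20 were positive and 2 negative, with IKBKB at −0.72 and RBCK1 at −0.81. In AGS the RBCK1 call was lost without untreated replicate 1 (adjusted p = 0.0501) or treated replicate 2 (0.0513), and its call for the difference in 6 leave-one-out fits. IKBKB's call for the difference ended without AGS untreated replicate 1 (adjusted p = 0.0543) or treated replicate 1 (0.0529).

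Of 10 non-canonical genes, 1 passed in MKN1 and 0 in AGS, with medians of −0.33 and 0.07. Without MKN1 untreated replicate 3 there were 2 lower in MKN1. CD40, a TNF receptor family member, fell by 0.74 in MKN1 (SE 0.13, adjusted p = 0.0095), with 18.6 CPM in treated and 31.0 CPM in untreated cells, and this call ended with MKN1 fitted alone (adjusted p = 0.0864). MAP3K14, the gene of the NF-kB inducing kinase, was higher by 2.90 in untreated MKN1 than in untreated AGS cells (adjusted p = 2.25e-07), and TRAF3, its negative regulator, by 1.25 (adjusted p = 1.75e-06), while TNFRSF11A, the RANK receptor gene, was lower by 2.66. Of these 10 genes 6 were higher and 3 lower in untreated MKN1, against 34.9% and 31.4% of all tested genes. Among the higher, TNFSF13B averaged 0.62 CPM and LTB 0.096 CPM in untreated AGS cells. The list's median between untreated lines was 0.89, and 0.49 over the 8 genes of at least 1 CPM in both groups. BIRC2 and CHUK are counted both here and in the canonical list. Of 13 other negative regulators, 1 was higher in each line, RNF11 in MKN1 by 0.39 (SE 0.10, adjusted p = 0.0327) and TAX1BP1 in AGS by 0.37 (SE 0.12, adjusted p = 0.0436). Both encode partners of A20. The TAX1BP1 call ended without any 1 of the AGS libraries (adjusted p = 0.0897 to 0.14), and the RNF11 call in 9 of 22 alternatives. Without MKN1 untreated replicate 3 there were 1 higher and 1 lower in MKN1. Between untreated lines 7 of the 13 were higher and 4 lower in MKN1, beside the same 34.9% and 31.4%, among them ZC3H12A, the Regnase-1 gene, higher by 3.15 (adjusted p = 4.49e-10). TNIP3, also among the higher, averaged 0.019 CPM in untreated AGS cells.

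Of 30 other NF-kB target genes 26 had an identifier, and all 26 were tested. The symbols CSF2, BCL2A1, SOD2 and MMP9 matched no identifier, so these genes are not in the counts below. In MKN1 0 were higher and 2 lower (median −0.26), and without MKN1 untreated replicate 3 there were 2 higher and 6 lower. CCL2, a monocyte chemokine gene, had 9.35, 5.94 and 14.9 CPM in treated MKN1 cells, against 51.7, 52.5 and 88.0 CPM in untreated MKN1 cells. CCL2 fell by 2.66 (SE 0.37, adjusted p = 0.00268), with treated libraries far below untreated ones. GADD45B, a stress response gene, fell by 0.76 (SE 0.21, adjusted p = 0.0479), a call kept in 6 of 22 alternatives and lost in 11 of the 12 leave-one-out fits.

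In AGS 8 of these 26 target genes were higher and 0 lower, namely PLAU, CXCL1, CFLAR, CXCL2, CXCL3, CSF1, LCN2 and GADD45B. This is 30.8%, against 20.8% of all tested genes called in AGS, 9.21% higher and 11.6% lower. Their number was 4 without AGS untreated replicate 2. It was also 4 without AGS untreated replicate 3, where calls over all genes fell to 2051 of 20827. With AGS fitted alone 13 were higher and 2 lower among the 20 then tested, beside 8368 of 17345 over all genes. CXCL1, a neutrophil chemokine gene, had 16.1, 16.0 and 20.5 CPM in treated AGS cells, against 10.7, 10.9 and 9.76 CPM in untreated AGS cells. Treated libraries were all higher, and CXCL1 rose by 0.75 (SE 0.16, adjusted p = 0.00646), past the threshold in all 22 alternatives. CFLAR, which encodes the caspase 8 regulator cFLIP, rose by 0.67 (SE 0.14, adjusted p = 0.00707) and the chemokine gene CXCL2 by 0.58 (SE 0.13, adjusted p = 0.00959). PLAU, the urokinase gene, had 28, 23 and 17 counts in treated AGS libraries, against 2, 4 and 0 counts in untreated AGS libraries, and stayed under 1 CPM (adjusted p = 0.00338).

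The median log2 fold change of the 26 target genes in AGS was 0.55. It was 0.44 with TNF and VCAM1, at 0 counts in untreated AGS cells, set at a floor of 3 counts per library, and 0.48 over the 16 genes of at least 1 CPM in both AGS groups. For the difference, 0 were positive and 8 negative, among them GADD45B at −1.52, LCN2, the lipocalin 2 gene, at −1.49, and the growth factor gene CSF1 at −0.83. In untreated cells 21 of the 26 were higher and 1 lower in MKN1, against 34.9% and 31.4% of all tested genes, with a median of 2.29 over the 16 genes of at least 1 CPM in both groups. LCN2 had 290.1, 358.5 and 246.3 CPM in untreated MKN1 cells, against 2.50, 1.86 and 2.00 CPM in untreated AGS cells.

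**Figure D4:**
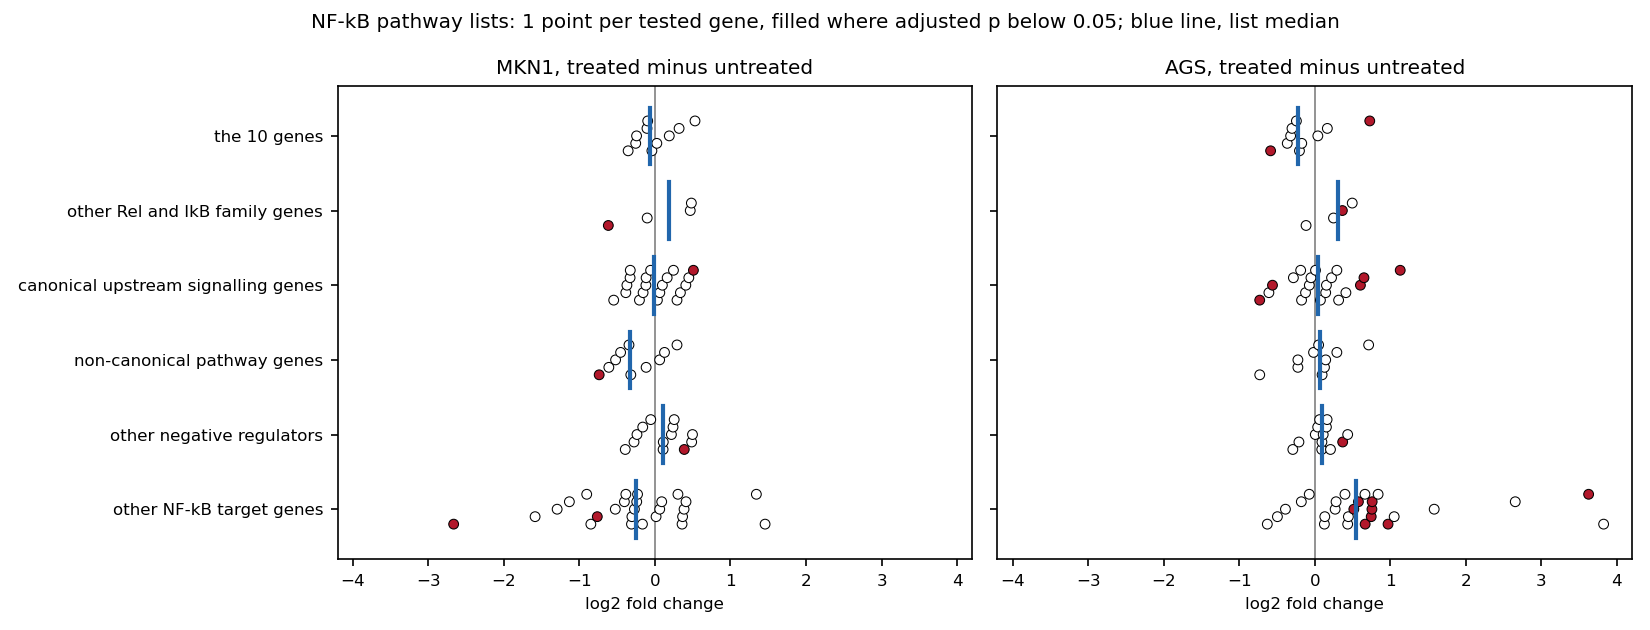
Log2 fold change, treated minus untreated, of every tested gene of the 10 and of the 5 other lists in MKN1 and in AGS, with filled points for genes past adjusted p below 0.05 by edgeR and a blue mark at the list median. The other target genes have a median of −0.26 in MKN1 and 0.55 in AGS, and the 10 genes −0.07 in MKN1 and −0.22 in AGS.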

How the data were processed

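The authors deposited raw counts per gene for 12 libraries, 32269 Ensembl identifiers in 1 table, with no normalization. Per the labels' protocols, the NEBNext Ultra RNA kit, which does not mark strand, was used on fragmented mRNA. Alignment was to hg38/GRCh38 with HISAT2 2.0.4, per the submitters' processing notes. No counting tool, annotation or strand setting is named in the sources used here, so reads of genes that overlap on opposite strands cannot be told apart.

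Symbols matched 32069 identifiers, and GENCODE release 29 gave positions for 32136. Counts were fitted in 1 model of 4 groups with edgeR 4.0.16 in R 4.3.3 (TMM factors, filterByExpr, glmQLFit and glmQLFTest), with 8 residual and 4.91 prior degrees of freedom. P-values were adjusted by Benjamini-Hochberg over 20280 genes, with a threshold of 0.05. In a library 3 counts stood for 0.0591 to 0.109 CPM, a floor that covers counting error only. CPM per kilobase used the union of GENCODE exons. Library copies were looked for by chi-square within groups, and the lowest ratio to degrees of freedom was 9.28, so none was a copy. The fit was tested on simulated data.

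All 10 genes are named whatever their values. From each list, up to 4 called genes per treatment contrast and up to 3 for the other contrasts are named, by smallest adjusted p, and the 3 genes most like NFKBIA and NFKB2. The other AGS target calls, the 10 genes' role sums, the levels of REL, and TNF, VCAM1, TNFSF13B, LTB and TNIP3 were named after their values were seen. The genes and lists were chosen with earlier results of these data known, and their choice is not independent of them. Alternatives were other scalings, DESeq2 1.42.0, limma 3.58.1 (voom), other filters, a replicate block, removal of the GC and length trend (splines of transcript GC content and length fitted per library), each line alone, each library left out, and a minimum log2 fold change of 1.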

Additional observations from a re-analysis of the deposited data

Results flagged for a closer look

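The 10 results listed here are those of genes named for the difference, whose treatment effect in MKN1 differed from that in AGS. The difference itself was tested (MKN1 minus AGS, edgeR's quasi-likelihood test, adjusted over all tested genes). At most 3 genes per list were named for it, and further list genes passed too, among them CXCL3 and CFLAR. Among the 10 NF-kB genes the log2 differences were 0.61 for NFKBIB (adjusted p = 0.0338), 0.89 for NFKBIE (adjusted p = 0.0304) and −0.97 for BIRC3 (adjusted p = 0.0259). Over the alternatives, BIRC3 passed in 18 of 21 and NFKBIB and NFKBIE each in 11 of 21.

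Among the other pathway genes they were −0.98 for BCL3 (adjusted p = 0.00225) and 1.07 for MYD88 (adjusted p = 0.00176), both called within each line with opposite signs. IKBKB differed by −0.72 (adjusted p = 0.0199) and RBCK1 by −0.81 (adjusted p = 0.026), and they passed in 19 and 15 of 21 alternatives. GADD45B differed by −1.52 (adjusted p = 0.00526), LCN2 by −1.49 (adjusted p = 0.00945) and CSF1 by −0.83 (adjusted p = 0.00982). BCL3, MYD88, GADD45B, LCN2 and CSF1 passed in all 21.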

How the results depend on the processing

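Over all alternatives the log2 fold changes of the 10 genes gave 811 values on the same side of the threshold, 21 newly past it and 28 no longer past it, and no called value turned its sign. For the named list genes 756 stayed and 58 were no longer past it. The number of the 10 genes called in MKN1, 0, became 2 with DESeq2, 1 with limma voom and 2 after removal of the GC and length trend. The AGS number, 2, became 1 with limma voom, 1 with the GC and length trend removed, 6 with each line fitted alone and 0 at a log2 change of 1 or more either way. For the difference, 3 became 1 with no filter and 0 at that minimum. Over all genes, calls in MKN1 became 2459 with DESeq2, 809 with no filter, 34 with each line alone and 458 at that minimum. Those in AGS became 8368 with each line alone and 1519 at that minimum, those for the difference 2012 and those between untreated lines 8797 at that minimum. The causes were not tested, beyond the minimum's own construction.

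Leaving out 1 library in turn gave 1 to 3 of the 10 genes in AGS, 0 to 2 in MKN1, 0 to 4 for the difference and 9 to 9 between untreated lines. All-gene calls ranged over 2051 to 5533 in AGS, 336 to 3160 in MKN1, 2098 to 4643 for the difference and 12432 to 13875 between untreated lines. The AGS number was lowest without AGS untreated replicate 3, and the MKN1 number was highest without MKN1 untreated replicate 3 and lowest without MKN1 untreated replicate 2.

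Same-numbered treated and untreated libraries showed no steady shared deviation (correlations 0.012, 0.02 and −0.044 in AGS, 0.08, −0.04 and 0.176 in MKN1). Pairs of unlike number ran from −0.181 to 0.116. Pairing by number was thus not seen, though such correlations cannot exclude it, and the main fit did not use it. With a replicate block 2, 0, 4 and 9 of the 10 genes passed in AGS, MKN1, the difference and the untreated lines, RELA being added to the difference. A block together with the GC correction was not run for that reason. The lowest count among the 10 genes was 147, of NFKBIE in a treated AGS library.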
